A study of Mus musculus with 57 samples.

Results

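The genes described here are 9 regulators and targets of early T cell development: the transcription factors Bcl11b, Tcf7, Lef1 and Gata3, the receptors Notch1 and Notch3, and the Notch-responsive genes Ptcra, Hes1 and Dtx1. They were chosen by name, and every probe set that names 1 of them alone was used. This gave 15 probe sets for 8 genes, out of 34842 probe sets for 18165 genes. Tcf7 was not analysed here. All 15 probe sets passed the filter on low signals.

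RNA of hematopoietic tissue was measured on 57 oligonucleotide arrays, from mice with a leukemia transgene and from wild-type mice. CA10 mice carried vav-CALM-AF10 and NHD13 mice carried vav-NUP98-HOXD13. The vav promoter is active across blood cells and not in T cells alone. Levels of the transgenes were not analysed here. No mouse received a treatment, and ages were given only as matched to the wild type where possible.

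Spleens came from leukemic CA10 mice (6 arrays), leukemic NHD13 mice (6), CA10 mice without signs of leukemia (5) and wild-type mice (2). Thymuses came from NHD13 (3) and CA10 mice (4) without signs of leukemia and from wild-type mice (7). Whole marrow came from CA10 (3) and NHD13 mice (3) without signs of leukemia, from wild-type mice labelled C57B6 (3) and from other wild-type mice whose strain is not in the labels (6). Lineage-negative marrow, depleted of mature cells, was measured on 3 arrays per genotype (CA10, NHD13, wild type), again without signs of leukemia. Whether arrays of a group came from separate mice is not in the labels, so the p-values reflect array-to-array spread, which may be technical.

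In the thymus, stromal ligands engage Notch1 on incoming progenitors, the receptor is cleaved, and its intracellular part joins the DNA-binding protein RBPJ to switch on target genes. Tcf7 and Gata3 are induced early in this program, and Bcl11b then closes the myeloid and progenitor options of the cell. Outside the thymus, marginal zone B cells of the spleen depend on Notch2, and Dtx1 is known as a Notch-responsive gene there.

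Ptcra encodes the invariant partner of the T cell receptor beta chain in immature thymocytes and is a textbook Notch target, so the bases before its start are shown. The window covers the 250 bases before the start, at chr17:46763713-46763962 on the minus strand (RefSeq, GRCm38.p6). The core letters of the RBPJ motif, TGGGAA, are in capitals.

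Ptcra: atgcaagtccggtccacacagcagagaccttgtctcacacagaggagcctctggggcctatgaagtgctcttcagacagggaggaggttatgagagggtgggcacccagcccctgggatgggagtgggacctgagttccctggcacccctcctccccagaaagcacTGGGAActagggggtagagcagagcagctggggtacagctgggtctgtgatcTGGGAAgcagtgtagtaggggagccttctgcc

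A search of both strands found TGGGAA at bases -84 to -79 and -32 to -27, counted back from the start. These letters occurred in 21.6% of all 32851 promoter windows of that length. Windows were supplied for 8 of the 9 genes, 12 windows in all, and none of the other 11 held TGGGAA. The gene without a window was Hes1, so its motifs are not known here. The TCF and LEF core CTTTGA occurred in the Bcl11b window and in 1 of 4 Lef1 windows, against 13.8% of all windows. The GATA core GATAA occurred in the Notch3 window, in 1 of 2 Tcf7 windows and in 1 of 4 Lef1 windows, against 22.6% of all windows. The motifs do not overlap each other, and a match describes letters only.

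Each gene is given by its leading probe set, the one with the highest mean over all arrays. Values are log2 signals, on which a step of 1 is a doubling, and a level is compared only within a gene. Differences were tested with limma in 1 model per tissue, and a gene was called when its Benjamini-Hochberg adjusted p over 26747 probe sets was under 0.05. The share of all 14760 genes called, each by its leading probe set, is the background against which a count of the 8 genes is read.

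Some arrays stood apart from their groups on marker genes. The array labelled wild-type thymus 2 had a mean of 5.28 over 8 thymic epithelium markers, against 8.55 to 9.20 on the other 6 wild-type thymuses. Its B cell markers averaged 9.34, against 6.31 to 7.21 on the others, and its signal of Rag1, a recombinase gene of thymocytes, was 4.06. These values go against its label, and which tissue it holds was not tested. The array labelled CA10 thymus 3 had an epithelium mean of 7.20, with 8.22 to 8.84 on the other CA10 thymuses. Thymus results are given with all arrays, and some of them also without these 2 arrays, a choice made after seeing the data. Where leaving out is not named, a thymus value is of all arrays. A set of 10 arrays had a narrow spread of signals, with 75th percentiles of 6.90 to 7.15 against 7.26 to 7.72 on the other 47. It held wild-type thymus 6, the 3 whole marrows of CA10 mice, those numbered 4 to 6 of wild-type mice, and the arrays numbered 3 in lineage-negative marrow.

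Across the 14 groups, Bcl11b, Lef1 and Gata3 were highest in the 3 thymus groups, and Dtx1 was highest in the spleens without leukemia. Bcl11b averaged 10.73 to 11.50 in the thymus groups, 8.29 and 8.92 in CA10 healthy and wild-type spleens, and 5.25 to 6.54 in the other 9 groups. These 3 tiers were separated by more than the SDs of the neighbouring groups, while within a tier neighbouring groups overlapped. Gata3 and Ptcra had a single such break, between the thymus groups and all others. For Gata3 the thymus means were 7.52 to 8.01 and the others 4.14 to 5.41, and for Ptcra they were 7.08 to 7.55 against 4.83 to 5.59.

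The receptors and the remaining targets had other orders. Notch1 was highest in NHD13 thymus at 10.43 ± 0.32 (SD, n = 3) and lowest in the 3 lineage-negative groups, at 6.46 to 7.07, which lay below every other group by more than their SDs. Dtx1 averaged 10.99 ± 0.25 in wild-type spleen (SD, n = 2) and 10.05 ± 1.52 in CA10 healthy spleen (SD, n = 5), while the other 12 groups averaged 6.35 to 8.29. Notch3, which encodes another Notch receptor, and Hes1, a repressor induced by Notch, had no break between neighbouring groups larger than their SDs. Notch3 group means ran from 5.46 to 8.09 and Hes1 means from 6.13 to 7.52.

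**Figure D1:**
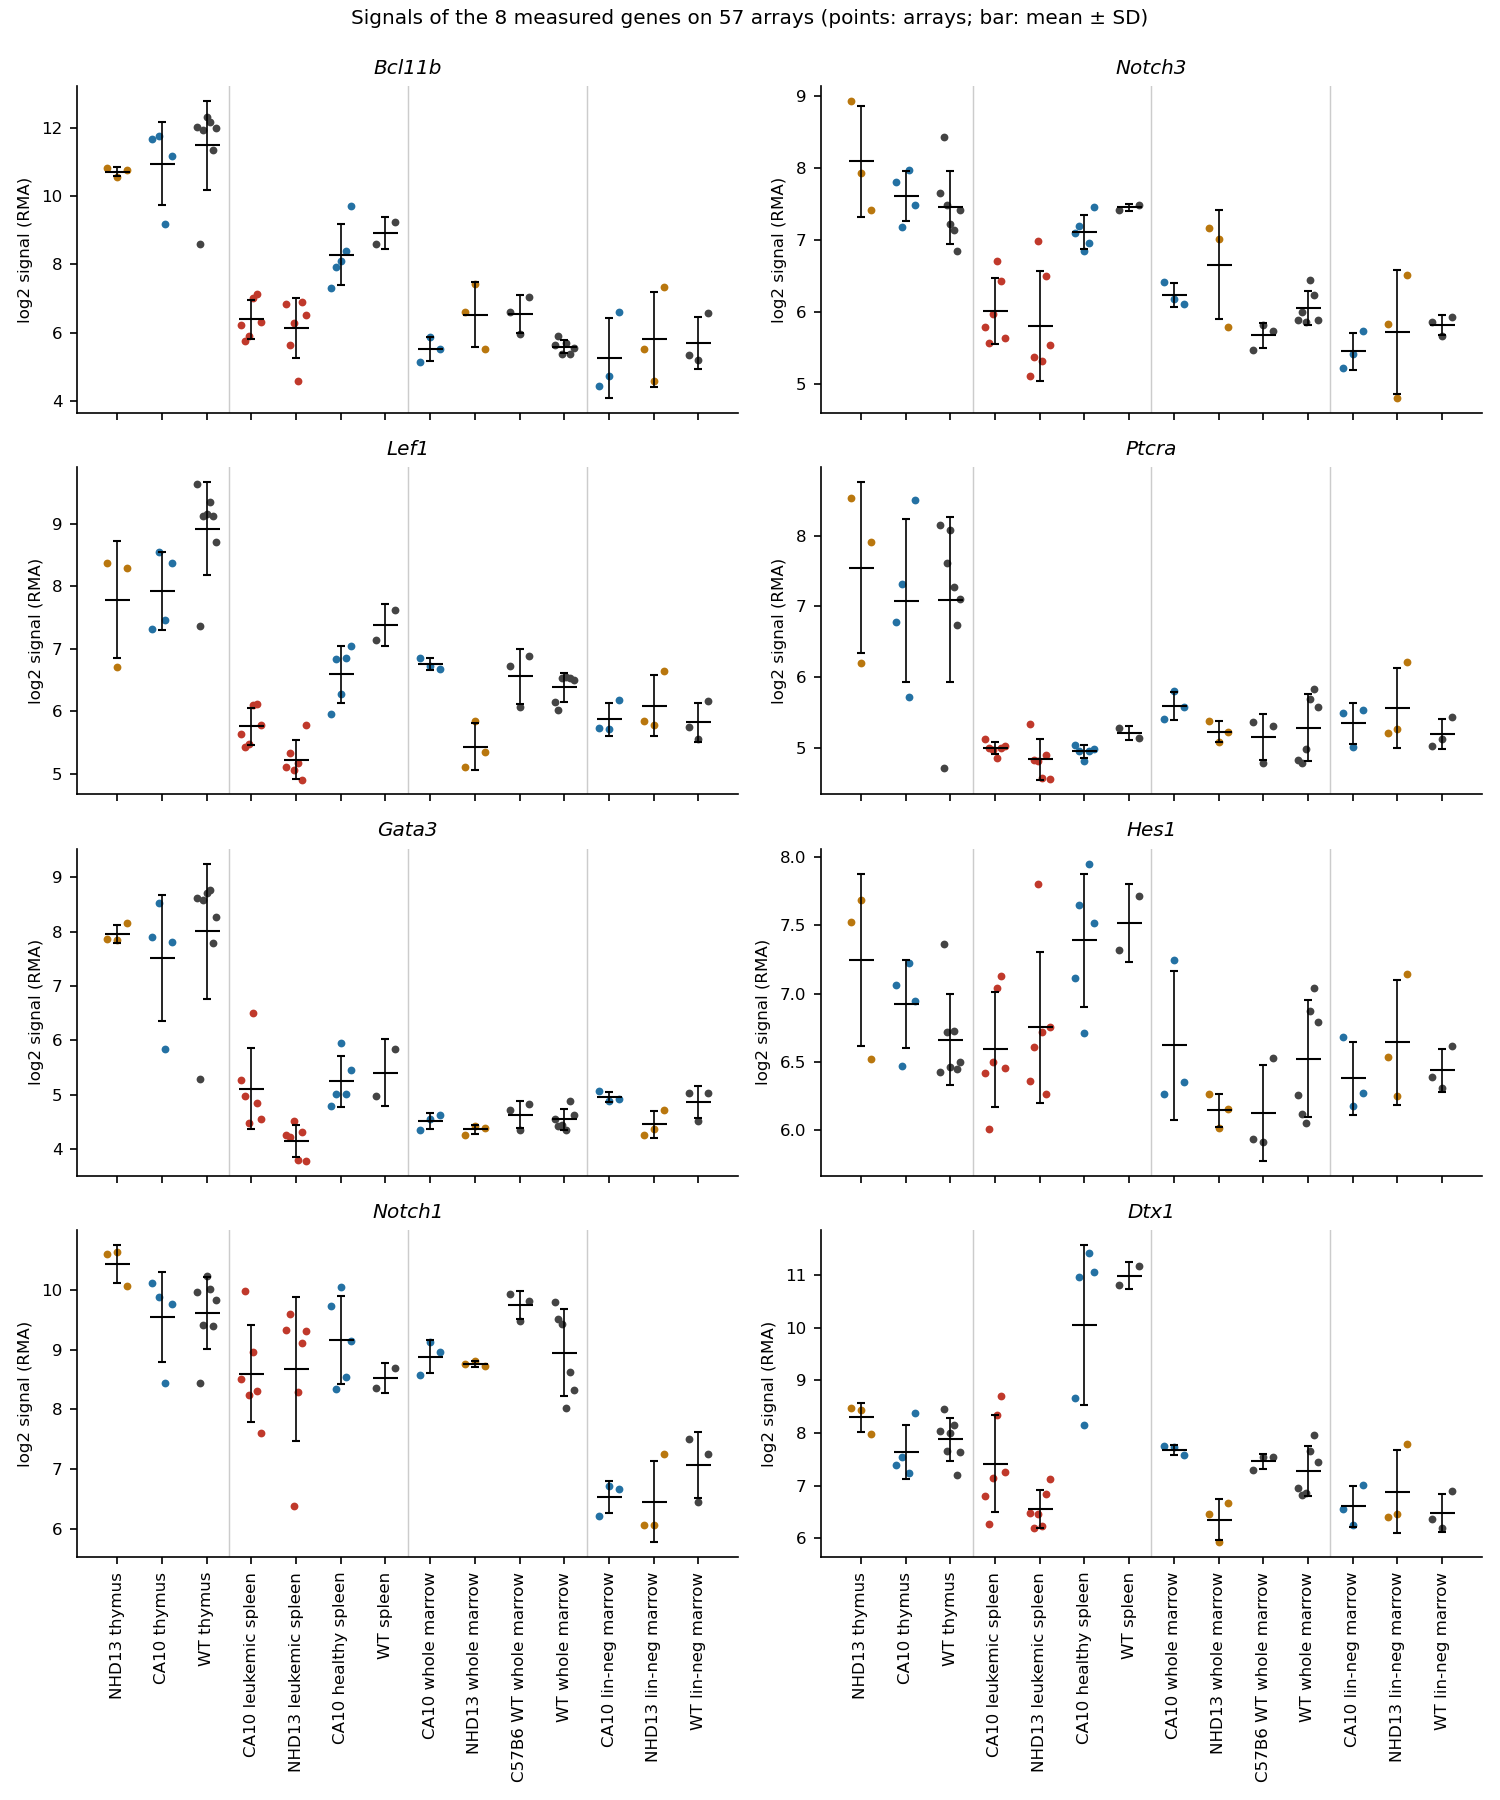
Log2 signal (y axis, RMA) of the leading probe set of each of the 8 genes in the 14 groups (x axis). Points are arrays and bars are the group mean ± SD. Bcl11b, Gata3 and Ptcra are highest in the thymus groups, Dtx1 in the spleens without leukemia, and Notch1 is lowest in lineage-negative marrow.

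The tissue pattern was tested within wild-type mice. Of the 8 genes, 5 were higher in wild-type thymus than in wild-type whole marrow, where 49.8% of all genes were called in either direction. Bcl11b was 5.91 ± 0.48 higher (log2, SE; adjusted p = 5.91e-14), Gata3 3.46 ± 0.35 (4.74e-11), Lef1 2.54 ± 0.26 (5.98e-11), Ptcra 1.82 ± 0.35 (3.51e-05) and Notch3 1.40 ± 0.27 (3.47e-05), in limma. Notch1 (0.66 ± 0.38), Dtx1 (0.59 ± 0.36) and Hes1 (0.14 ± 0.23) were not called. Without the 2 thymus arrays, 5 genes were again called and the background was 50.6%.

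Wild-type spleen differed from wild-type marrow in another subset. Dtx1 was 3.71 ± 0.53 higher (log2, SE; limma, adjusted p = 2.73e-06), Bcl11b 3.34 ± 0.70 higher (0.000762) and Notch3 1.40 ± 0.39 higher (0.0146). These 3 of 8 genes stood against 10.6% of all genes called. Ptcra, the pre-T cell receptor gene, differed by -0.07 ± 0.51 and was not called. With 1 of the 2 wild-type spleens left out in turn, Dtx1 stayed called, Notch3 was lost without either spleen (adjusted p up to 0.21), and Bcl11b was lost without spleen 2 (0.0762).

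In the thymus of NHD13 mice, Bcl11b, the commitment factor, had signals of 10.83, 10.57 and 10.78, against 12.03, 8.61, 11.96, 12.32, 12.18, 11.37 and 12.01 in wild-type thymuses 1 to 7. The NHD13 arrays lay close together, below all wild-type arrays but number 2. The difference was -0.77 ± 0.71 (log2, SE; limma, adjusted p = 0.759). Without wild-type thymus 2 alone it was -1.25 (adjusted p = 0.194), still without a call. Without CA10 thymus 3 as well it was -1.25 ± 0.22 (0.00771), and without wild-type thymus 6 too, -1.37 ± 0.16 (0.000881). CA10 thymus 3 is in neither group and enters only the spread that the thymus groups share. Bcl11b was thus called lower in NHD13 thymus only with arrays left out that were chosen after seeing the data.

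Lef1, a factor of the same DNA-binding family as Tcf7, had signals of 8.36, 6.71 and 8.28 in NHD13 thymus. In wild-type thymuses they were 9.63, 7.36, 9.13, 9.15, 9.34, 9.12 and 8.70. The NHD13 arrays were again below all wild-type arrays but number 2, and NHD13 array 2 was below that one too. The difference was -1.13 ± 0.47 (limma, adjusted p = 0.369), and -1.39 ± 0.37 without the 2 arrays (0.0545), so Lef1 was not called in either case.

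Gata3, which acts beside Tcf7 early in commitment, had 7.87, 7.85 and 8.15 in NHD13 thymus. In wild-type thymus it had 5.28 on array 2 and 7.79 to 8.77 on the others. The ranges overlapped, and the difference was -0.05 ± 0.68 (limma, adjusted p = 0.989), or -0.50 ± 0.24 without the 2 arrays (0.293).

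The receptors lay on the other side of 0 in NHD13 thymus without passing the test. Notch1 had 10.60, 10.62 and 10.06 in NHD13 thymus, against 9.96, 8.45, 9.41, 10.23, 10.02, 9.39 and 9.82 in wild-type thymus. NHD13 arrays 1 and 2 lay above all wild-type arrays, and NHD13 array 3 above all but wild-type array 4. The difference was 0.82 ± 0.39 (limma, adjusted p = 0.443). A lower Notch1 probe set gave 0.83 ± 0.26 (adjusted p = 0.191). Notch3 differed by 0.63 ± 0.34 (0.522), with 8.93, 7.92 and 7.42 in NHD13 thymus and 6.84 to 8.43 in wild-type thymus. The Notch1 and Notch3 differences include wild-type thymus 2, the lowest wild-type array for Notch1.

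The Notch-responsive genes were not called in NHD13 thymus either. Ptcra had 8.53, 6.19 and 7.92 in NHD13 thymus, against a lowest signal of 4.71, a median of 7.28 and a highest of 8.15 in wild-type thymus. Its 3 NHD13 arrays spread wider than the wild-type arrays other than number 2. Its difference was 0.45 ± 0.72 (limma, adjusted p = 0.874), and 0.05 ± 0.50 without the 2 arrays (0.968). Hes1 differed by 0.58 ± 0.27 (0.436), and Dtx1, a modulator of Notch signalling, by 0.42 ± 0.28 (0.644). Both differences include wild-type thymus 2, the highest wild-type array for Hes1. By limma 0 of 8 genes were called, with 0.725% of all genes called. Lef1 was the 1 gene of 8 with an unadjusted p under 0.05, a share near the 11.7% of all genes. Without the 2 arrays 1 of 8 was called, Bcl11b, against a background of 4.13%.

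Genes around these members were read from lists of the pathway. The share of all genes called in NHD13 thymus was 0.725% with all arrays and 4.13% without the 2 arrays. Of 19 tested Notch receptor, ligand and processing genes, 0 were called by limma in NHD13 thymus with all arrays or without the 2 arrays. With all arrays 3 had an unadjusted p under 0.05, against 11.7% of all genes. Without the 2 arrays 7 did, and the share of all genes in that fit is not given here. Of 16 tested Notch partners and targets, 1 was called, the growth regulator Myc, higher by 1.18 ± 0.24 (limma, adjusted p = 0.0439) with all arrays and by 1.17 ± 0.25 (0.0211) without the 2. Of 25 thymocyte genes, 0 were called with all arrays, and 6 had an unadjusted p under 0.05, against 11.7% of all genes. Without the 2 arrays 9 were lower and none higher, with a median of -0.80 against 0.02 over all genes. They included the recombinase gene Rag2 (-3.28 ± 0.33, adjusted p = 0.000306) and the coreceptor genes Cd4 (-2.26 ± 0.28, 0.000884) and Cd8a (-3.38 ± 0.53, 0.00383).

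Progenitor genes normally silenced at commitment, 15 in all, gave 1 call with all arrays, the homeobox gene Hoxa9 (5.03 ± 1.04 higher in NHD13 thymus, limma, adjusted p = 0.0446). Hoxa9 was not particular to NHD13. In CA10 thymus it differed from wild type by 5.42 ± 0.94 without a call (limma, adjusted p = 0.962). CA10 minus NHD13 was 0.39 ± 1.15 (0.936). Without the 2 arrays Hoxa9 (5.09 ± 0.77, 0.00295) and the stem cell factor receptor gene Kit (2.14 ± 0.37, 0.00764) were higher. The cytokine receptor gene Flt3 was lower in that fit (-0.85 ± 0.21, 0.0396). With all arrays 1 of 13 T cell markers (Cd2) and 1 of 9 B cell markers (Ms4a1) were lower in NHD13 thymus, against 0.725% of all genes called. Without the 2 arrays it was 8 of 13 and 5 of 9, against 4.13%. The list means were 9.08 to 10.01 in NHD13 thymus and 8.75 to 11.24 in wild-type thymus for T cell markers, or 10.46 to 11.24 there without array 2. Their part in the Bcl11b difference was not tested. In bulk tissue, fewer cells of a type and less RNA per cell cannot be told apart.

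**Figure D2:**
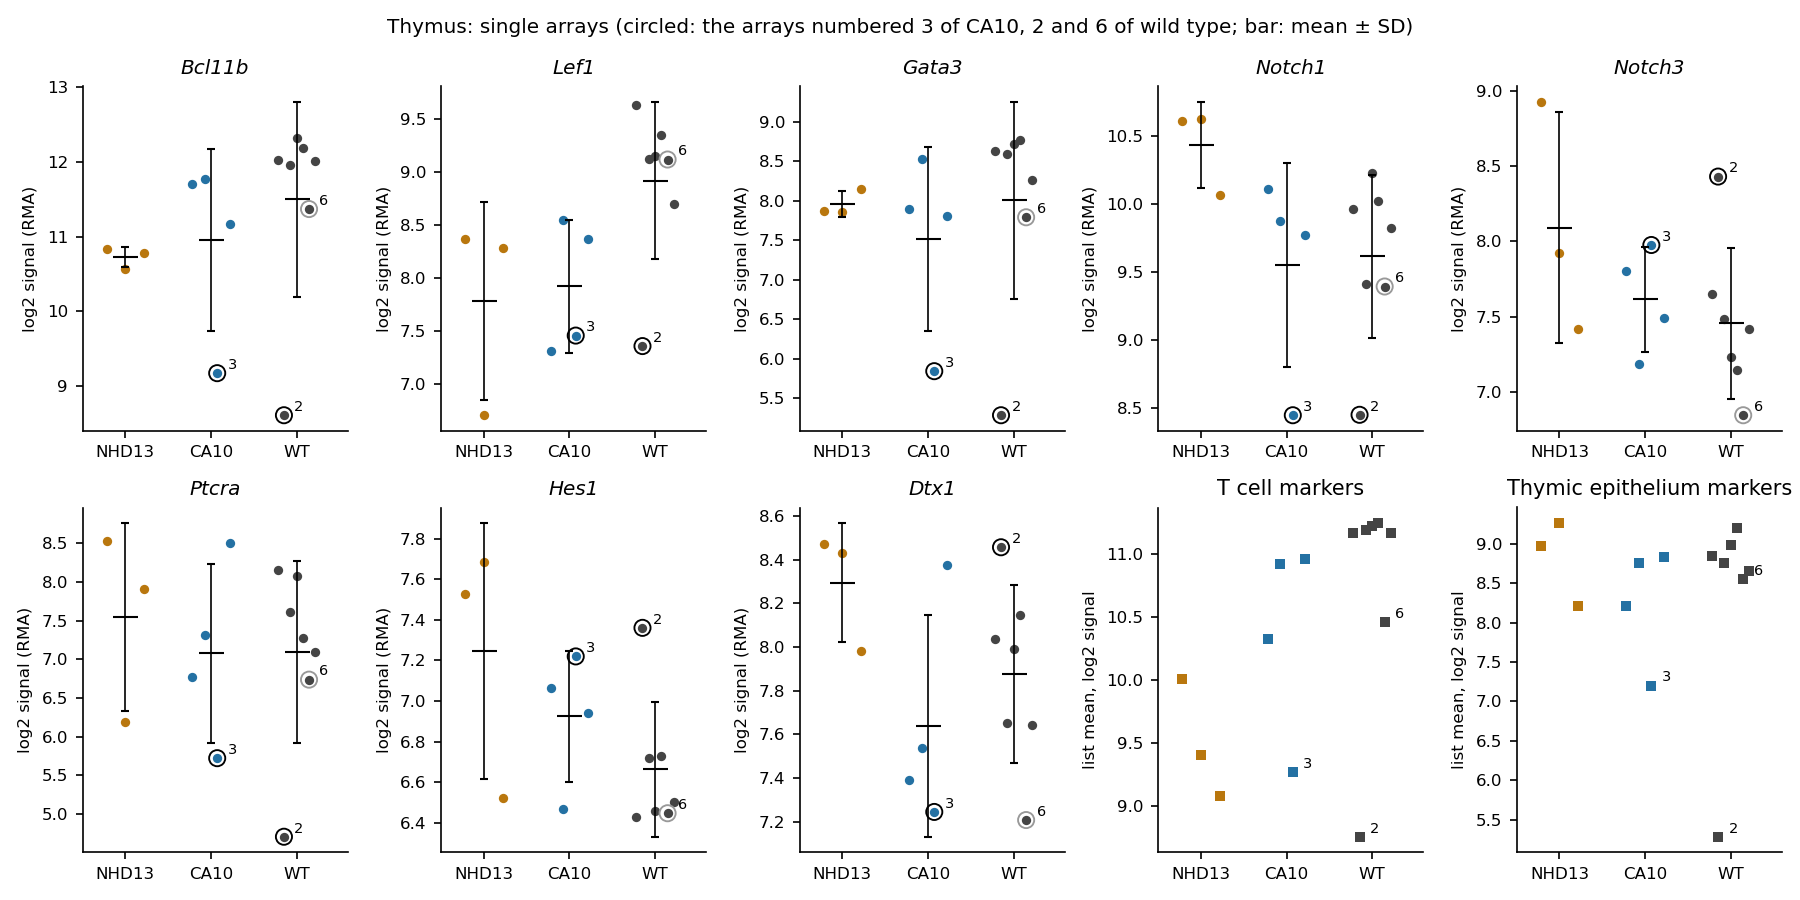
Log2 signals of the 8 genes, and mean log2 signals of the T cell and thymic epithelium marker lists (y axes), on single thymus arrays of NHD13, CA10 and wild-type mice (x axis). In the gene panels bars are means ± SD and the circled points are CA10 array 3 and wild-type arrays 2 and 6, which are numbered in the marker panels too. Wild-type array 2 is the lowest wild-type array for Bcl11b, Lef1, Gata3, Notch1, Ptcra and both marker lists.

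In CA10 thymus none of the 8 genes was called by limma, and 0% of all genes were called. An unadjusted p under 0.05 was found for 1 of 8, against 3.25% of all genes. Bcl11b had 11.70, 11.77, 9.17 and 11.18 in CA10 thymus, the third array well below the rest, and differed from wild type by -0.54 ± 0.65 (adjusted p = 0.962). Lef1 had 7.32, 8.55, 7.46 and 8.36 in CA10 thymus, all below the 6 wild-type arrays other than number 2. Its difference was -0.997 ± 0.43 (0.962), and -1.10 ± 0.37 without the 2 arrays. Gata3 had 7.90, 8.53, 5.84 and 7.81, and differed by -0.49 ± 0.62. The Notch genes and targets differed from wild type by -0.24 (Dtx1) to 0.26 (Hes1). Without the 2 arrays 0 of 8 were called, and 0.0407% of all genes were called. In that fit 1 of 8 had an unadjusted p under 0.05, and the share of all genes that did is not given here.

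Set directly against each other, CA10 and NHD13 thymuses differed in none of the 8 genes by limma, with 0.183% of all genes called. None of the 8 had an unadjusted p under 0.05, against 9.85% of all genes. Bcl11b was 0.23 ± 0.79 higher in CA10 (log2, SE; adjusted p = 0.947). Without the 2 arrays the value was 0.82 ± 0.25 (0.209) and the background 0.711%, and without wild-type thymus 6 as well it was 0.82 ± 0.18 (0.044). Notch1 differed by -0.88 ± 0.43 (0.524), and its lower probe set by -0.89 ± 0.28 (0.319). So the lower Bcl11b level of NHD13 thymus passed the test against CA10 thymus only with 3 arrays left out.

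In leukemic spleen, of the 8 genes Dtx1 had the largest fall in both leukemias. In CA10 leukemic spleens Dtx1 had 6.80, 6.28, 7.14, 8.34, 8.69 and 7.26, and in NHD13 leukemic spleens 6.48, 6.19, 6.46, 6.23, 6.85 and 7.13. CA10 healthy spleens had 8.67, 10.96, 8.15, 11.41 and 11.06, and wild-type spleens 10.81 and 11.17. All leukemic arrays lay below both wild-type arrays, while CA10 healthy arrays 1 and 3 overlapped the CA10 leukemic range. With only 2 wild-type spleens such separation was common. CA10 leukemic and wild-type spleens did not overlap in 6 of the 8 genes and in 32.4% of all genes. For NHD13 leukemic spleens it was 5 of the 8 and 41.4% of all genes. These shares also stand behind the genes that follow. Against wild type, Dtx1 was 11.9-fold lower in CA10 leukemic spleen (-3.57 ± 0.73, limma, adjusted p = 0.0128). In NHD13 leukemic spleen it was 21.6-fold lower (-4.43 ± 0.73, 0.00036). Against CA10 healthy spleen, CA10 leukemic spleen was 6.20-fold lower (-2.63 ± 0.54, 0.0134).

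Bcl11b had 6.22, 5.75, 5.90, 7.00, 7.12 and 6.30 in CA10 leukemic spleens, and 6.84, 5.64, 6.27, 4.58, 6.89 and 6.51 in NHD13 leukemic spleens. It had 7.29, 7.92, 8.10, 8.40 and 9.72 in CA10 healthy spleens, and 8.59 and 9.25 in wild-type spleens. All 12 leukemic arrays lay below all 7 arrays without leukemia. CA10 leukemic and CA10 healthy spleens did not overlap in 2 of the 8 genes and in 5.04% of all genes. The differences were -2.54 ± 0.58 for CA10 leukemic against wild type (limma, adjusted p = 0.0191), -2.80 ± 0.58 for NHD13 leukemic against wild type (0.0018) and -1.90 ± 0.43 for CA10 leukemic against CA10 healthy (0.0182). The other 3 Bcl11b probe sets were called lower in all 3 comparisons, by 0.65 to 2.22 on the log2 scale in size.

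Lef1 ranged from 5.43 to 6.12 in CA10 leukemic spleens (median 5.71) and from 4.91 to 5.79 in NHD13 leukemic spleens (median 5.14). It had 5.96, 6.84, 6.28, 6.85 and 7.04 in CA10 healthy spleens, and 7.14 and 7.62 in wild-type spleens. Leukemic arrays lay below both wild-type arrays, and only CA10 healthy array 1 reached into the CA10 leukemic range. The difference from wild type was -1.62 ± 0.28 in CA10 leukemic spleen (limma, adjusted p = 0.00755) and -2.15 ± 0.28 in NHD13 leukemic spleen (5.52e-05). Against CA10 healthy spleen it fell by 0.83 ± 0.21 in CA10 leukemic spleen (0.0254). A lower Lef1 probe set was called in NHD13 leukemic spleen (-1.06 ± 0.30, 0.0118) and not in CA10 leukemic spleen (-0.95 ± 0.30, 0.0593).

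Gata3, of the 8 genes, was called between the leukemias. It had 5.27, 4.98, 4.47, 6.50, 4.85 and 4.55 in CA10 leukemic spleens, and 4.25, 4.21, 4.51, 3.79, 4.31 and 3.78 in NHD13 leukemic spleens. Wild-type spleens had 4.97 and 5.85. All NHD13 leukemic arrays lay below both wild-type arrays, whereas the CA10 leukemic arrays spread around them. The NHD13 signals included 3.78, the lowest of this probe set on the 57 arrays, so they lay at the floor of its range. Gata3 fell by 1.26 ± 0.42 in NHD13 leukemic spleen (limma, adjusted p = 0.0281) and differed by -0.30 ± 0.42 in CA10 leukemic spleen (0.709). The direct difference, CA10 minus NHD13, was 0.96 ± 0.30 (0.0223), and the ranges overlapped by 1 array on each side. Without NHD13 leukemic spleen 4 that difference lost its call (adjusted p = 0.0503). It was 1 of 8 genes called between the leukemias, where 25.6% of all genes were called.

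Of the receptors, Notch3 was lower in leukemic spleen. It had 5.79, 5.57, 5.98, 6.71, 6.43 and 5.64 in CA10 leukemic spleens, and 5.11, 5.37, 6.99, 5.33, 6.51 and 5.55 in NHD13 leukemic spleens. It had 7.11, 7.19, 6.84, 6.95 and 7.46 in CA10 healthy spleens, and 7.42 and 7.49 in wild-type spleens. NHD13 leukemic arrays 3 and 5 stood above the other 4, and all leukemic arrays lay below wild type. The difference from wild type was -1.44 ± 0.40 in CA10 leukemic spleen (limma, adjusted p = 0.0389) and -1.65 ± 0.40 in NHD13 leukemic spleen (0.00513). Against CA10 healthy spleen it fell by 1.09 ± 0.30 in CA10 leukemic spleen (0.0378). Differences of the lower Notch3 probe set, with signals of 4.44 to 7.50 over all arrays, are not given here.

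Notch1 spanned 7.61 to 9.98 in CA10 leukemic spleens (median 8.41) and 6.39 to 9.60 in NHD13 leukemic spleens (median 9.21). Wild-type spleens, at 8.35 and 8.70, lay inside both ranges. The differences from wild type were 0.07 ± 0.69 in CA10 leukemic spleen (limma, adjusted p = 0.965) and 0.15 ± 0.69 in NHD13 leukemic spleen (0.893). NHD13 leukemic spleen 3, lowest for Notch1, was highest of its group for Notch3 and for Hes1 (7.80).

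Hes1 was lower in every leukemic comparison without a call. It differed by -0.92 ± 0.37 in CA10 leukemic spleen (limma, adjusted p = 0.125) and by -0.76 ± 0.37 in NHD13 leukemic spleen (0.121), each against wild type. CA10 leukemic spleens differed from CA10 healthy spleens by -0.80 ± 0.27 (0.0857). Ptcra was near the floor of its range in all spleens, from 4.55 to 5.34, and was not called.

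By count, 4 of the 8 genes fell in CA10 leukemic against wild-type spleen, with 7.8% of all genes called in either direction. In NHD13 leukemic against wild-type spleen 5 fell, with 31.9% called. In CA10 leukemic against CA10 healthy spleen 4 fell, with 6.35% called. The first and the third of these comparisons share the CA10 leukemic arrays, and the first and the second share the wild-type arrays. In CA10 healthy against wild-type spleen 0 of 8 were called by limma, with 0% of all genes called. There 1 of 8 had an unadjusted p under 0.05 (Lef1, -0.79 ± 0.29), against 2.36% of all genes.

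**Figure D3:**
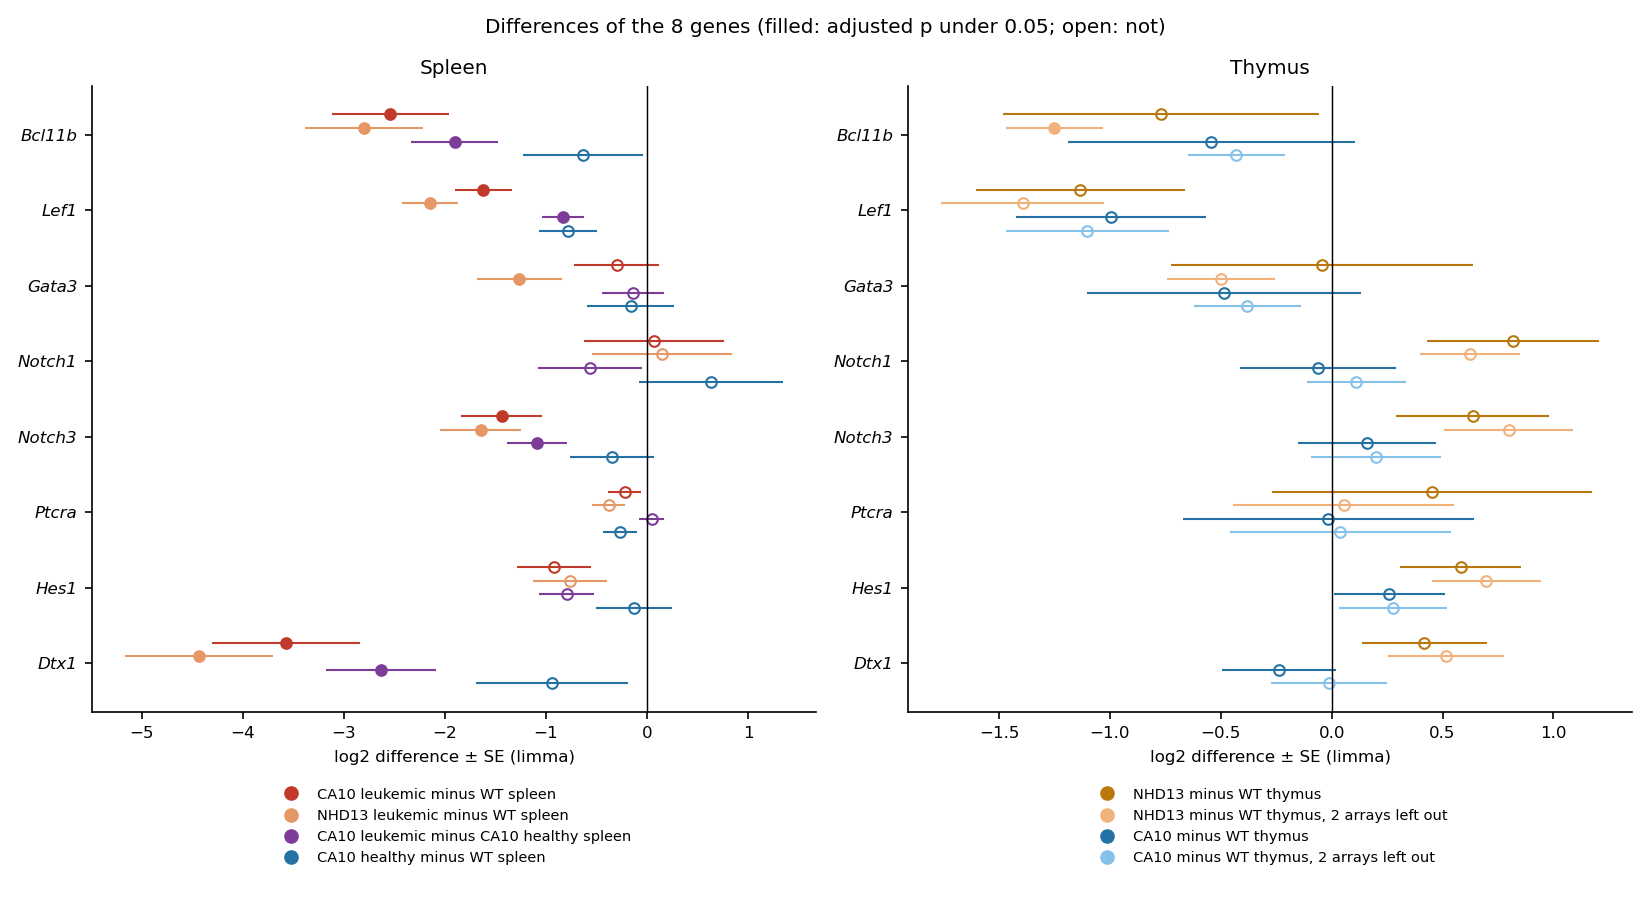
Log2 differences ± SE from limma (x axis) for the 8 genes (y axis) in spleen and in thymus. Filled points have an adjusted p under 0.05 and open points do not; paler thymus points leave out wild-type array 2 and CA10 array 3. Dtx1 and Bcl11b lie farthest below 0 in leukemic spleen. The only filled point in thymus is the paler one of Bcl11b in NHD13, without those 2 arrays, and its point with all arrays is open.

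Only 2 wild-type spleens were measured, and the spleen calls were sensitive to single arrays. All 4 CA10 leukemic calls against wild type were lost when either wild-type spleen was left out, with highest adjusted p-values of 0.229 for Bcl11b, 0.131 for Lef1, 0.262 for Notch3 and 0.159 for Dtx1 in limma. The differences themselves stayed between -2.87 and -2.21 for Bcl11b and between -3.83 and -3.34 for Dtx1. Notch3 also lost its call without CA10 leukemic spleen 1, 2, 3 or 6. In NHD13 leukemic spleen, Bcl11b, Lef1 and Dtx1 kept their calls without any single array, and Gata3 (highest adjusted p = 0.329) and Notch3 (0.0594) lost theirs without wild-type spleen 2.

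Against CA10 healthy spleens, Dtx1 in CA10 leukemic spleen kept its call without any single array. Bcl11b lost it without CA10 healthy spleen 5 (limma, adjusted p = 0.0622). Lef1 lost it without CA10 healthy spleen 2, 4 or 5 or CA10 leukemic spleen 2, 3 or 6 (up to 0.0874). Notch3 lost it without the same healthy spleens or CA10 leukemic spleen 1, 2, 3 or 6 (up to 0.112). Differences stayed between -2.15 and -1.55 for Bcl11b, between -0.99 and -0.72 for Lef1 and between -1.23 and -1.001 for Notch3. CA10 healthy spleen 1 had an uneven Gapdh signal, 2.09 higher on the 3′ than on the 5′ probe set, against 0.14 to 0.58 on the other CA10 healthy spleens. With that measure as a covariate Bcl11b, Lef1 and Dtx1 stayed called in this comparison and Notch3 did not (-0.95 ± 0.36, 0.116).

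Lymphocyte markers moved with these genes in spleen. B cell markers fell in 6 of 9 genes in CA10 leukemic spleen (median -3.25) and in 9 of 9 in NHD13 leukemic spleen (median -5.14), each against wild type. List means were 5.97 to 9.15 in CA10 leukemic, 5.13 to 6.19 in NHD13 leukemic, 8.29 to 11.24 in CA10 healthy and 10.78 to 11.15 in wild-type spleens. In CA10 leukemic spleen 1 of 13 T cell markers was called lower, a share near the 7.8% of all genes called there. All 13 differences were nevertheless below 0 (median -1.52). Some just missed the threshold, such as Cd3g (-2.00 ± 0.60, limma, adjusted p = 0.0508) and Thy1 (-1.54 ± 0.47, 0.0523). In NHD13 leukemic spleen 12 of the 13 T cell markers were called lower (median -2.40), where 31.9% of all genes were called. Their list means were 6.51 to 7.73 in CA10 leukemic, 5.86 to 6.77 in NHD13 leukemic, 7.18 to 8.75 in CA10 healthy and 8.23 to 8.89 in wild-type spleens.

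CA10 healthy spleens also varied among themselves. Arrays 1 and 3, with Dtx1 at 8.67 and 8.15, had B cell list means of 8.49 and 8.29 and granulocyte list means of 13.00 and 13.00. The other 3, with Dtx1 at 10.96 to 11.41, had B cell means of 10.42 to 11.24 and granulocyte means of 8.54 to 10.89. Against CA10 healthy spleen, 3 of 9 B cell markers (median -1.96) and 1 of 13 T cell markers (median -0.93) fell in CA10 leukemic spleen. The share of all genes called there was 6.35%, which the count of T cell markers called was near, though their median lay below 0. The part of these cell mixtures in the fall of Dtx1, Bcl11b, Lef1 and Notch3 was not tested.

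**Figure D4:**
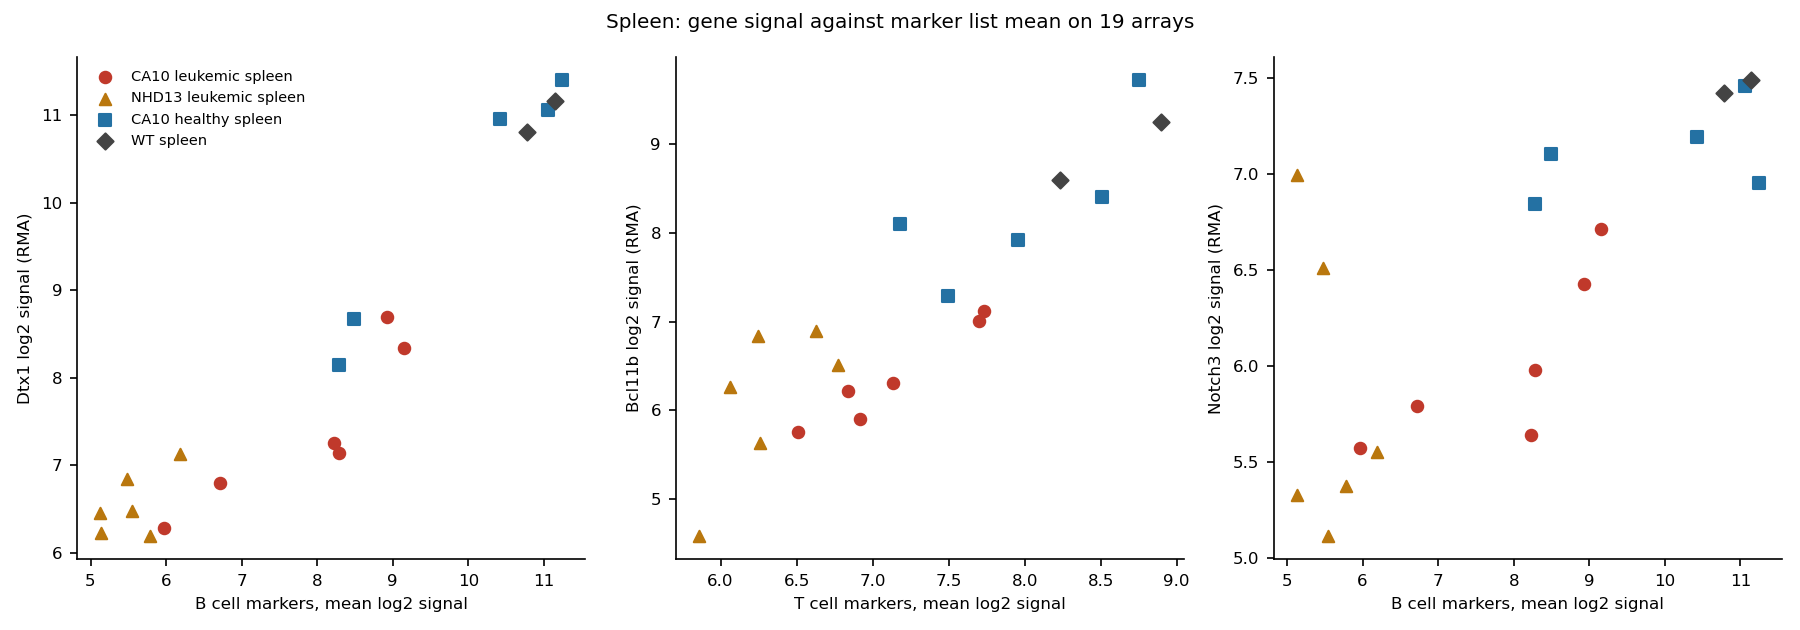
Log2 signal of Dtx1, Bcl11b and Notch3 (y axes) against the mean log2 signal of B or T cell markers (x axes) on the 19 spleen arrays; each point is an array. Dtx1 and the B cell markers are low together in NHD13 leukemic spleens and high together in wild-type spleens, with CA10 healthy arrays 1 and 3 beside the upper CA10 leukemic arrays.

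Other genes of the pathway were counted in leukemic spleen. In CA10 leukemic against wild-type spleen, of 19 Notch receptor, ligand and processing genes 1 fell, Notch3, which is near the background of 7.8%. Of 16 partners and targets Dtx1 fell, and Rbpj, the gene of the DNA-binding partner of Notch, rose by 1.46 ± 0.35 (limma, adjusted p = 0.0229). Rbpj also rose by 0.98 ± 0.26 in CA10 leukemic against CA10 healthy spleen (0.0344). There Jag1, which encodes a Notch ligand, fell by 1.33 ± 0.38 (0.0436), with a background of 6.35%.

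In NHD13 leukemic against wild-type spleen 6 of the 19 receptor, ligand and processing genes fell and 2 rose, with 31.9% of all genes called. Those that fell included Lfng, whose product adds sugars to Notch receptors (-2.54 ± 0.30, limma, adjusted p = 2.72e-05), and Ncstn, a subunit of the protease that cleaves Notch (-1.22 ± 0.24, 0.00116). Of the 16 partners and targets, Dtx1 and Dtx3 fell and Myc rose by 1.71 ± 0.43 (0.00618), a smaller share than the background. Of 25 thymocyte genes 16 fell in NHD13 leukemic spleen (median -1.54) and 5 in CA10 leukemic spleen (median -1.06), each against wild type. Set against CA10 healthy spleens, 5 fell in CA10 leukemic spleens (median -0.73). Over all genes the medians of these 3 comparisons lay between 0.01 and 0.05. Bcl11b and Lef1 are on the thymocyte list and are among those counted.

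NHD13 leukemic spleens resembled the C57B6 marrows in a pair of strain-variable genes. Mndal, an interferon-inducible gene, was 6.23 to 8.49 in them and 8.33 to 8.88 in the C57B6 marrows, against 3.92 to 4.03 in wild-type spleens and 3.91 to 4.13 in NHD13 thymuses. Ifi202b, of the same family, was 3.68 to 4.91 in NHD13 leukemic spleens, 4.15 to 4.53 in C57B6 marrows and 6.79 to 6.99 in wild-type spleens. Ifi202b was also low in lineage-negative marrow of all 3 genotypes (4.37 to 5.32), where Mndal was low too (3.24 to 3.71), so low Ifi202b alone does not mark C57B6. Leukemia and strain background cannot be told apart in NHD13 leukemic against wild-type spleen. The C57B6 difference was measured in whole marrow and not in spleen, so subtracting it cannot tell them apart either. With it subtracted in 1 model of all arrays, 3 of 8 genes were called lower, with a background of 7.87%. They were Dtx1 (-4.61 ± 0.70), Lef1 (-2.33 ± 0.51) and Bcl11b (-3.75 ± 0.92). Gata3 (-1.35 ± 0.69, limma, adjusted p = 0.244) and Notch3 (-1.27 ± 0.52, 0.132) were not called. The Gata3 difference between the leukemias, CA10 minus NHD13, was then 1.05 ± 0.58 (limma, adjusted p = 0.368).

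In whole marrow of NHD13 mice Lef1 was the 1 gene of 8 called, with 1.02% of all genes called. At an unadjusted p under 0.05 there were 4 of 8, against 16.1% of all genes. Dtx1 (-0.93 ± 0.25, limma, adjusted p = 0.102), Bcl11b (0.93 ± 0.32, 0.212) and Notch3 (0.60 ± 0.25, 0.27) were not called. Lef1 had 5.12, 5.85 and 5.34 in NHD13 marrow, against 6.15, 6.02, 6.54, 6.55, 6.54 and 6.50 in wild-type marrow. The groups did not overlap, as in 2 of the 8 genes and 6.75% of all genes. Lef1 was 1.93-fold lower in NHD13 (-0.95 ± 0.21, limma, adjusted p = 0.0419). The call was lost without NHD13 marrow 1 or 3 or wild-type marrow 4, 5 or 6, with differences of -1.15 to -0.79. Against wild-type marrows 1 to 3, which share the wider spread of signals of the NHD13 marrows, the difference was -0.80 ± 0.23 (0.139), and Notch1 was the 1 gene called (-0.82 ± 0.17, 0.0356), with a background of 1.63%. Against wild-type marrows 4 to 6, which are of the narrow set while the NHD13 marrows are not, 5 of 8 were called and so were 52.4% of all genes. Lef1 (-1.09 ± 0.22), Ptcra (-0.48 ± 0.18), Hes1 (-0.75 ± 0.24) and Dtx1 (-1.34 ± 0.20) were lower there and Bcl11b (0.98 ± 0.39) higher, a share near the background. The Bcl11b probe sets disagreed in that fit, and 1 of the lower ones was called lower (-0.67 ± 0.20). B cell markers fell in 7 of 9 genes in NHD13 marrow (median -1.26), and their part in the Lef1 difference was not tested.

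In whole marrow of CA10 mice 0 of 8 genes were called by limma, with 0% of all genes called, and 0 had an unadjusted p under 0.05, against 14.4%. The result depended on which wild-type marrows were used. Against wild-type marrows 1 to 3, Dtx1 (0.81 ± 0.18), Ptcra (0.73 ± 0.17) and Notch1 (-0.69 ± 0.17) were called, with 53.8% of all genes called. Against marrows 4 to 6, which share the narrow spread of the CA10 arrays, none of the 8 was called and Dtx1 differed by -0.01 ± 0.20, with a background of 0.00678%.

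Between wild-type marrows, Bcl11b was higher in the C57B6 group, with 6.61, 5.95 and 7.05 against 5.37 to 5.89 in the others. The groups did not overlap, as in 2 of the 8 genes and 21.3% of all genes, and the Bcl11b difference was 0.95 ± 0.32 (limma, adjusted p = 0.0469). Bcl11b was the 1 gene of 8 called, with 19.8% of all genes called. The call was lost without C57B6 marrow 1 or 3 or wild-type marrow 1, 3, 4, 5 or 6 (adjusted p up to 0.225).

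In lineage-negative marrow no gene of the 8 was called in CA10 or in NHD13 against wild type. For both comparisons 0 of 8 had an unadjusted p under 0.05 in limma, against 0.515% of all genes in CA10 and 3.44% in NHD13. Of all genes, 0% were called in CA10 and 0.0339% in NHD13. Notch1 had 6.22, 6.71 and 6.66 in CA10 and 6.06, 6.07 and 7.25 in NHD13, against 7.51, 6.45 and 7.25 in wild type. The ranges overlapped, with differences of -0.54 ± 0.40 in CA10 and -0.61 ± 0.40 in NHD13. Array 3 of each group belonged to the narrow set. Bcl11b was highest on array 3 in all 3 groups, at 6.59 in CA10, 7.32 in NHD13 and 6.56 in wild type.

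For each gene the genes with the most alike pattern were found by Pearson's r over the 14 group means. These groups share tissues, arrays and cell mixtures, so the values describe the pattern only. Bcl11b was most like Cd247 (r = 0.99), Skap1 and Lat (0.98 each), and Lef1 was most like Sit1 (0.97), Axin2 (0.96) and Pou6f1 (0.95). Gata3 was most like Abhd8 (0.99), Pmepa1 (0.99) and Ptprf (0.98). Notch1 was most like Slc9a3r1 (0.97), Inpp1 (0.96) and Phlda1 (0.95), and Notch3 was most like Abca8a, Prrx1 (0.96 each) and Il7 (0.95).

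Among the Notch-responsive genes, Ptcra was most like Kcnk2, Krt8 and Slc9a2 (0.99 each), where Krt8 is on the thymic epithelium list. Hes1 was most like Ptpn14 (0.93), Tnxb (0.91) and Echdc3 (0.90). Dtx1 was most like Pxdc1 (0.98), Fam167a and S1pr1 (0.97 each). Among the 8 genes themselves, Bcl11b and Gata3 had an r of 0.93, Gata3 and Ptcra 0.92, Bcl11b and Notch3 0.92, and Dtx1 and Hes1 0.84. Dtx1 and Ptcra, both described as Notch-responsive, had an r of 0.07 over the same group means.

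The genes are placed by RefSeq on GRCm38.p6. Bcl11b lies at chr12:107910403-108004145, Lef1 at chr3:131110297-131224357 and Gata3 at chr2:9857078-9887953. Notch1 lies at chr2:26457902-26503822, Notch3 at chr17:32120820-32166896 and Ptcra at chr17:46755663-46763712. Hes1 lies at chr16:30065357-30067796 and Dtx1 at chr5:120680203-120711867.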

How the data were processed

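RNA was extracted with Trizol, reverse transcribed and given a biotin label, per the labels' protocols. The authors deposited log2 signals; the submitters' processing notes name RMA, whose version is not given in the sources used here. The table held 44943 probe sets, of which 34842 named 1 gene in the supplied annotation. Number of arrays limits the precision.

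Probe sets above the 40th percentile of their array on at least 3 of 57 arrays were tested with limma 3.58.1 in R 4.3.3 (lmFit, eBayes), with 1 model per tissue and 1 of all arrays for comparisons between tissues. P-values were adjusted by Benjamini-Hochberg over all 26747 probe sets. The models were tested on simulated data. Pathway and marker lists were described by counts; of a list, at most the 3 genes with the smallest adjusted p were named. Genes of like pattern were the 3 with the highest r. Genes and lists were chosen with earlier results of these data known.

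Replicate numbers are not said to mark a shared mouse or day. Of the comparisons with 3 or more pairs, those in lineage-negative marrow had an r over 0.1 in every pair (from 0.22 to 0.68 for CA10 and from 0.18 to 0.73 for NHD13) and the others did not. Alternatives included other filters, models and control marrows, and single arrays left out; those on thymus arrays, RNA quality, the narrow arrays 3 and the C57B6 difference were added after seeing the data.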

Additional observations from a re-analysis of the deposited data

Results flagged for a closer look

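In groups of 4 to 10 arrays, 48 sets of values were examined for an array far from the rest of its group, and 6 such values were found, on 2 arrays; chance gives about 1 in 20. In wild-type thymus array 2 stood apart for 5 genes, which are not independent of each other. Its log2 signals were 8.61 for Bcl11b (11.37 to 12.32 on the others), 7.36 for Lef1 (8.70 to 9.63), 5.28 for Gata3 (7.79 to 8.77) and 4.71 for Ptcra (6.74 to 8.15), all low. Its Hes1 signal was high, at 7.36 (6.43 to 6.73 on the others). The same array had the low thymic epithelium and high B cell markers given with the data.

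In NHD13 leukemic spleen array 3 stood apart for Hes1, at 7.80 against 6.27 to 6.76 on the other 5. The same array was lowest of its group for Notch1.

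The Gata3 signal differed between the leukemic spleens by the direct test, with CA10 higher than NHD13 by 0.96 on the log2 scale. The call was lost without NHD13 leukemic spleen 4 (limma, adjusted p = 0.0503) and with the C57B6 marrow difference subtracted (0.368). For NHD13 leukemic spleen, leukemia and strain background cannot be told apart.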

How the results depend on the processing

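Over the single-gene differences and their alternatives, 3683 values stayed on their side of the threshold, 102 lost a call, 70 gained one and 0 were counted as reversed. Values without a call could still change sign, as Dtx1 in CA10 marrow did against wild-type marrows 4 to 6. Counts of the 8 genes called moved as follows. With 2 or 3 thymus arrays left out, NHD13 against wild-type thymus gave 1 in place of 0, and with 3 left out CA10 against NHD13 thymus gave 1 in place of 0. With the C57B6 difference subtracted, NHD13 leukemic against wild-type spleen gave 3 in place of 5, and CA10 against NHD13 leukemic spleen 0 in place of 1. With only the groups compared in the model, CA10 against NHD13 leukemic spleen gave 2, and NHD13 against wild-type marrow 0 in place of 1. Against wild-type marrows 1 to 3, CA10 marrow gave 3 in place of 0. Against marrows 4 to 6, NHD13 marrow gave 5 and C57B6 marrow 4, each in place of 1. Without a filter C57B6 against other wild-type marrow gave 0. The causes were not tested.

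With single arrays left out, the counts ran from 0 to 4 for CA10 leukemic against wild-type spleen, from 3 to 6 for NHD13 leukemic against wild-type spleen and from 1 to 4 for CA10 leukemic against CA10 healthy spleen. They ran from 0 to 2 for CA10 against NHD13 leukemic spleen, for NHD13 marrow and for C57B6 marrow, and from 1 to 4 for wild-type spleen against marrow. They stayed at 5 for wild-type thymus against marrow and at 0 for the thymus, CA10 healthy spleen, CA10 marrow and lineage-negative comparisons. Where 1 wild-type spleen remained, it was assumed to vary like the other groups.

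With the replicate number as a block, CA10 against NHD13 leukemic spleen gave 2, CA10 marrow 3, NHD13 marrow 0, C57B6 marrow 0 and wild-type spleen against marrow 5. In these the numbers are shared names only. In lineage-negative marrow, where same-numbered arrays were correlated, the block gave 0 calls, as without it. Whether those arrays are true pairs is not in the labels, and array 3 of each group is of the narrow set.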
